A study of Mus musculus with 40 samples.

Results

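Among 224 TaqMan assays measured in mouse colonic mucosa, 3 are described here: Mm00655850_m1, Mm00505670_m1 and Mm01320260_m1. They were chosen by their measured levels, because these ran far apart among samples of 1 group. Their levels and the differences between groups are therefore given as a description, with no test. Tests are kept for what that choice did not use, which is whether the 3 assays, and the other assays of the panel, vary together from sample to sample.

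The 40 samples fall into 4 groups of 10. Germ-free mice are raised without any microbes and were the control. Mice of the CEC group carried Escherichia coli CEC as their only bacterium for 21 days, and mice of the Nissle group carried Escherichia coli Nissle, a probiotic strain, for 21 days. Conventional mice carry a full microbiota, and the labels give no time for them. The labels give no strain, age or sex of the mice. Whether each sample comes from 1 mouse is unclear, because the design text describes a pooling of RNA. All p-values below therefore refer to the scatter among the deposited samples, and that scatter may be technical.

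The colonic mucosa is an epithelium of absorptive and mucus-secreting cells over connective tissue rich in immune cells. Bacteria in the lumen are sensed by both layers, and germ-free animals are the usual baseline for asking which genes respond to them. A single strain in an otherwise germ-free animal tests that strain on its own. A TaqMan assay is a primer pair with a fluorescent probe for 1 transcript, and its threshold cycle, or Ct, is the PCR cycle at which the signal crosses a set line. A lower Ct means more template, and 1 cycle less is about a doubling of it. An ID ending in _m1 denotes a probe that spans an exon junction, a form that 189 of the 224 assays have, the 3 described here among them. The deposited files do not pair IDs with genes, so assays are named by ID and neither a gene, a position in the genome nor a marker of a cell type is given. In tissue samples of this kind, fewer cells of a type and less RNA per cell cannot be told apart.

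A level here is log2 relative expression, obtained by subtracting the Ct of the assay from the median Ct that 203 assays, those never undetermined, had in the same sample. A level of 0 is that of the median assay, and 1 unit more is about a doubling relative to it. The sample medians ran from 21.57 to 22.80 cycles outside the CEC group, and from 21.86 to 24.27 in it. CEC replicates 8, 6 and 3 had the highest, at 24.27, 23.79 and 23.61 cycles. Undetermined assays numbered 6 to 15 per sample. CEC replicate 6 stood apart from the other samples in both assays that are followed below as a pair, so results that rest on it are also given without it.

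Within a group the typical assay varied little. The SD of the levels, pooled over the groups, had a median of 0.60 log2 units over 217 assays with enough measured samples. It was 3.10 for Mm00505670_m1, 3.04 for Mm01320260_m1 and 3.02 for Mm00655850_m1, which are ranks 2, 3 and 4. Rank 1 was held by Mm00446420_m1, with 3.51, which is not among the 3. The next were Mm00440616_g1 with 2.76 and Mm01288386_m1 with 2.65. In all, 9 assays had an SD above 2.

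**Figure D1:**
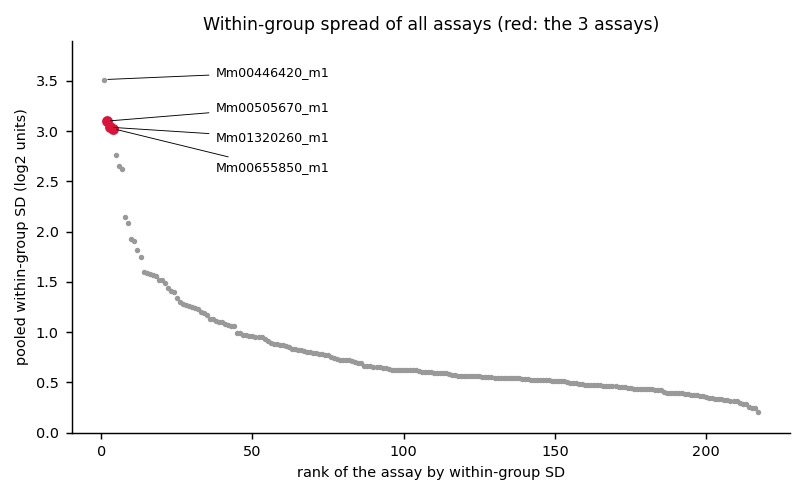
Pooled within-group SD of the level (log2 units) against the rank of the assay by that SD; each point is 1 of 217 assays. The 3 assays described here (red, 3.02 to 3.10) lie at ranks 2 to 4, far above the median of 0.60.

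The 3 assays did not share 1 pattern. Mm00505670_m1 fell into a high and a low cluster, with both present among the conventional samples. Mm01320260_m1 was split in the germ-free group and spread more evenly in the CEC and Nissle groups. Mm00655850_m1 had wide ranges with single samples far out, but no gap that divided the samples of all groups. High and low were divided at the widest gap in the levels of all samples with at least 5 samples on each side, where that gap was above 1.5 log2 units. Only Mm00505670_m1 had such a gap, of 6.05. The widest was 1.22 for Mm00655850_m1 and 1.30 for Mm01320260_m1. The description as switches thus held over all samples for 1 of the 3.

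**Figure D2:**
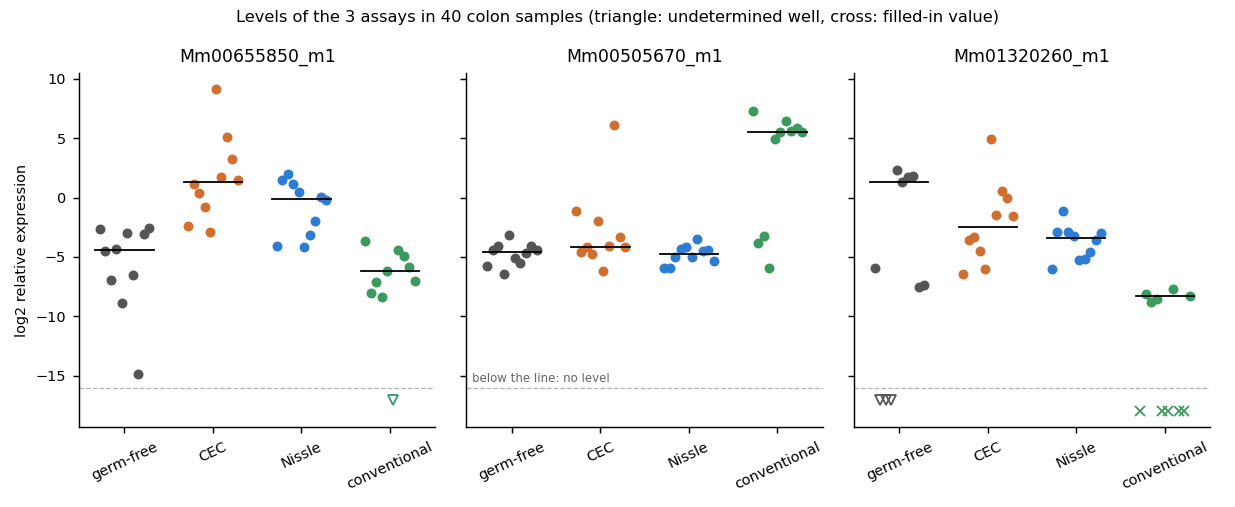
Log2 relative expression of the 3 assays in each sample (points) and the group median of measured samples (lines). Triangles are undetermined wells and crosses are filled-in values, both drawn below the dashed line because they have no level. Mm00505670_m1 splits the conventional samples into 7 at 4.92 to 7.32 and 3 at -5.91 to -3.21.

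Mm00505670_m1 was high in 8 of 40 samples, 7 of them conventional and 1 from the CEC group. Conventional replicates 1, 7, 9, 8, 10, 6 and 5 had levels of 7.32, 6.45, 5.82, 5.60, 5.56, 5.54 and 4.92. Conventional replicates 3, 2 and 4 had -3.21, -3.82 and -5.91. Between the lowest of the 7 and the highest of the 3 lay a gap of 8.13 log2 units, and the raw Ct of the group ran from 14.84 to 28.29 cycles. The 3 low conventional samples lay within the range of the germ-free samples, which ran from -6.46 over a median of -4.56 to -3.11. The Nissle samples were as low and as narrow, with -5.93 as the lowest, -4.75 as the median and -3.52 as the highest level. Of the CEC samples, replicate 8 was at 6.08, inside the range of the high conventional samples. CEC replicates 1 and 5, at -1.13 and -1.97, lay between the clusters and above every germ-free sample, and the other 7 ran from -6.16 to -3.31. CEC replicate 8 was also the sample with the highest median Ct. Its raw Ct for the assay was 18.19 cycles, and without normalization the high samples were again 7 conventional samples and 1 CEC sample.

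Mm01320260_m1 was measured in 32 samples, and here the wells without a level matter. In germ-free mucosa replicates 21, 31, 30 and 22 were at 2.30, 1.84, 1.71 and 1.35, and replicates 10, 33 and 32 were at -5.95, -7.37 and -7.52. The gap between these clusters was 7.30 log2 units. Replicates 11, 12 and 20 were undetermined, so the germ-free group held 4 high, 3 low and 3 undetermined samples. CEC samples formed a ladder rather than clusters, with -6.44 as the lowest, -2.43 as the median and 4.97, in replicate 6, as the highest level. Nissle samples ran from -6.01 over -3.39 to -1.13. Conventional samples were uniformly low in the 5 that were measured, replicates 7, 2, 10, 4 and 3, from -7.69 to -8.77. In the other 5, replicates 1, 5, 6, 8 and 9, the deposited Ct equalled the mean of the measured 5 and was read as filled in. All 5 of these were high for Mm00505670_m1, while the measured 5 held the 3 low samples for that assay and 2 high ones.

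Mm00655850_m1 varied widely in every group. In germ-free samples its level ran from -14.89 over a median of -4.41 to -2.55. The lowest was replicate 31, at a raw Ct of 36.67 cycles, the highest measured Ct of the whole table, and the next was replicate 21 at -8.91. CEC samples ran from -2.93 over 1.32 to 9.13, the last in replicate 6, and Nissle samples from -4.17 over -0.09 to 2.02. Conventional samples ran from -8.36 over -6.16 to -3.63 in 9 samples, with replicate 6 undetermined. By their medians the groups stand in the order CEC, Nissle, germ-free and conventional. The medians of neighbours CEC and Nissle differed by less than the SD of either group (3.59 and 2.33), while those of germ-free and conventional samples differed by less than the germ-free SD (3.86) and by more than the conventional one (1.62). Of the CEC samples, 9 of 10 lay above every germ-free sample, and of the Nissle samples 7 of 10 did. Between its lowest and highest sample the assay spanned 4287-fold in the CEC group and 72.8-fold in the Nissle group. In these 2 groups Mm01320260_m1 spanned 2714-fold and 29.5-fold.

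The question whether the 3 assays vary together was asked inside each group, where at least 6 samples had both values. Germ-free samples were not used for Mm01320260_m1, because of its 2 clusters there. For Mm00505670_m1, the conventional samples low for it were set aside. This left 8 combinations of a pair and a group. CEC samples were tested whole for Mm00505670_m1, although replicate 8 lay in its high cluster. Mm00655850_m1 and Mm01320260_m1 rose and fell together in both groups that carried 1 strain. In CEC samples Pearson's r was 0.987 (permutation test, p = 1e-05, the smallest that the 100000 permutations can give, and 8e-05 adjusted by the Benjamini-Hochberg method over the 8 combinations; n = 10). Spearman's rho was 0.976 (permutation p = 3e-05, adjusted 0.00024). In Nissle samples r was 0.949 (permutation p = 4e-05, adjusted 0.00016; n = 10) and rho was 0.939 (permutation p = 0.00019, adjusted 0.00076). All tests were two-sided. Leaving out the 2 samples farthest from the median of Mm00655850_m1, r was 0.967 in CEC samples (without replicates 5 and 6) and 0.924 in Nissle samples (without replicates 1 and 6). Leaving out each sample in turn kept r between 0.972 and 0.992 in CEC samples and between 0.933 and 0.969 in Nissle samples. A step of 1 log2 unit in Mm00655850_m1 went with 0.94 ± 0.05 units (SE) in Mm01320260_m1 in the CEC group and with 0.60 ± 0.07 in the Nissle group.

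The difference between the 2 Ct values of a sample does not contain the median Ct used for scaling. In CEC samples Mm01320260_m1 crossed the threshold 3.07 to 4.67 cycles after Mm00655850_m1 (mean 3.75 ± 0.59, SD, n = 10). The raw Ct alone varied far more there, from 14.65 to 24.79 cycles for Mm00655850_m1 and from 18.82 to 28.53 for Mm01320260_m1. In Nissle samples the lag was 1.10 to 4.43 cycles (2.93 ± 1.04, SD, n = 10). In conventional samples it was 0.11 to 3.25 cycles in the 5 with both values. Germ-free samples fell on both sides of 0. In the 3 samples low for Mm01320260_m1, replicates 10, 32 and 33, the lag was 3.33, 4.48 and 4.82 cycles, the first 2 of them inside the CEC range and the last just above it. In the 4 samples high for it, replicates 22, 30, 21 and 31, the sign was turned, with -4.32, -8.26, -11.22 and -16.73 cycles. These 4 included the 2 germ-free samples lowest for Mm00655850_m1. CEC replicates 6 and 8, the highest for both assays, were also the CEC samples with the highest median Ct. Without any scaling, on raw Ct, r was 0.981 in CEC and 0.945 in Nissle samples.

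**Figure D3:**
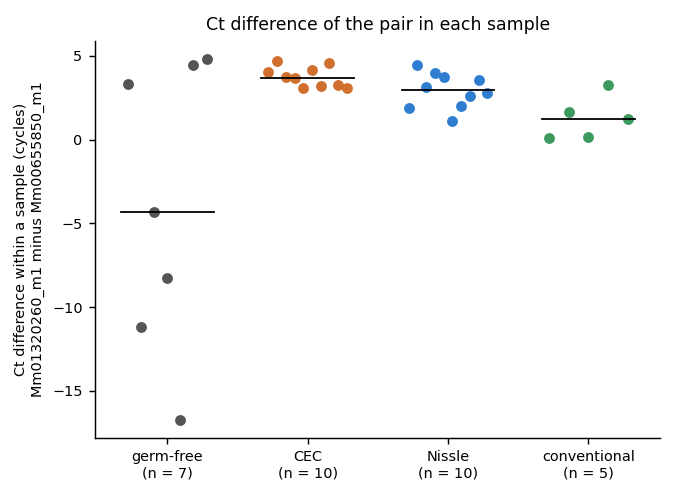
Difference in Ct (cycles) between Mm01320260_m1 and Mm00655850_m1 in each sample with both values (points) and the group median (lines). CEC and Nissle samples lie in bands of 3.07 to 4.67 and 1.10 to 4.43 cycles. The 5 conventional samples lie at 0.11 to 3.25, while 4 of 7 germ-free samples lie at -4.32 or below.

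The slope of 1 assay on the other differed between the groups. A moderated F test of the interaction of group and level, fitted with limma over all assays, gave an adjusted p of 0.000152 for Mm01320260_m1 on Mm00655850_m1 (F = 19.1) and of 3.42e-05 in the other direction. The slope of the first on the second was -0.67 in germ-free samples (n = 7), against 0.94 in the CEC and 0.60 in the Nissle group. The germ-free slope rests on the 2 clusters of Mm01320260_m1, a split for which the assay was chosen, so neither this slope nor the p-values of the interaction are independent of that choice. With undetermined wells set to 37.67 cycles, 1 cycle above the highest measured Ct, the first of these tests had a limma adjusted p of 0.0762. In a slope shared by all 4 groups the relation did not show: it was 0.18 ± 0.17 (SE; 32 samples, limma, adjusted p = 0.555).

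For Mm00505670_m1 no relation with the other 2 assays passed over the full groups. With Mm00655850_m1 its r was -0.28 in germ-free samples, 0.01 in the CEC group and -0.03 in the Nissle group, with rho of -0.33, -0.16 and 0.01 (permutation tests, adjusted p from 0.851 to 0.965 for r and from 0.696 to 1 for rho; n = 10 each). With Mm01320260_m1 r was -0.04 in CEC and -0.04 in Nissle samples (rho -0.15 and 0.01; permutation tests, adjusted p = 0.965 each for r, and 0.912 and 1 for rho; n = 10 each). The CEC values rested on replicate 8. Without it r with Mm00655850_m1 was -0.76 (permutation test, adjusted p = 0.0491) and r with Mm01320260_m1 was -0.74 (permutation test, adjusted p = 0.0511). With 10 samples a moderate relation could have been missed. Leaving out the 2 samples farthest on the x axis moved r with Mm00655850_m1 to 0.53 in CEC and to -0.64 in Nissle samples.

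In conventional mucosa the samples fall into 2 clusters for Mm00505670_m1, so no r over the whole group is given. The 3 samples low for Mm00505670_m1, replicates 2, 3 and 4, had Mm00655850_m1 levels of -8.03, -7.11 and -8.36, the lowest of the 9 measured. Replicate 10, high for Mm00505670_m1, was next at -7.02, only just above them. Replicate 6, high for Mm00505670_m1 at 5.54, was undetermined for Mm00655850_m1, so it stands neither in this order nor in the r below. Among the 6 high samples with both values, r was 0.82 (exact permutation test, p = 0.0417, adjusted 0.111) and rho was 0.886 (exact p = 0.0333, adjusted 0.0889), which did not pass after adjustment. Leaving out the 2 farthest samples left r at 0.81 over 4 samples.

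**Figure D4:**
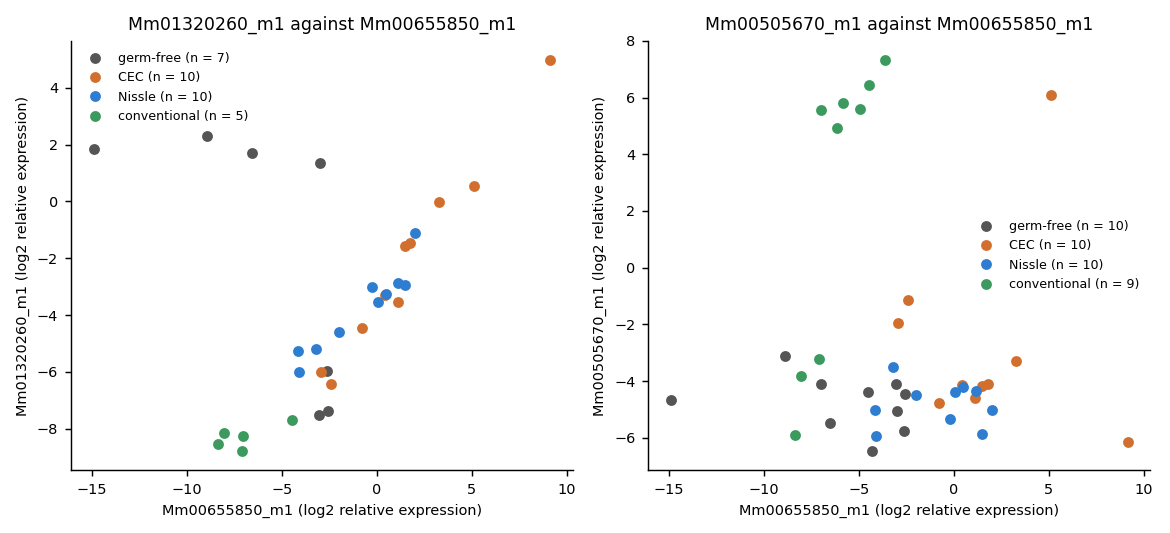
Levels (log2 relative expression) of Mm01320260_m1 (left) and Mm00505670_m1 (right) against Mm00655850_m1; each point is 1 sample with both values, coloured by group. On the left the CEC samples rise with a slope of 0.94 and the Nissle samples with 0.60 (r = 0.987 and 0.949), and 4 germ-free samples lie at the upper left. On the right 6 conventional samples and CEC replicate 8 lie apart at the top.

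To ask which other assays vary with each of the 3, every other assay was regressed on the level of 1 of them with limma, with group as a factor, so that differences between group means do not enter. The slope gives log2 units of the assay per log2 unit of the regressor. An assay was called at an adjusted p below 0.05. Over all groups few were. On Mm00655850_m1, 6 of 212 assays were called (2.83%), 4 with a positive and 2 with a negative slope. On Mm01320260_m1 it was 4 of 189 (2.12%), 3 positive and 1 negative. On Mm00505670_m1 it was 0 of 212 (0%; 13 at an unadjusted p below 0.05), and this stayed at 0 without any 1 of the 40 samples. Neither of the other 2 assays was called in any of these fits.

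By within-group r, the assays most like Mm00655850_m1 were Mm00456303_m1 (r = 0.637), Mm01195718_m1 (0.595) and Mm00441127_m1 (0.594; limma, adjusted p = 0.0052 for each; 39 samples), and the most opposed were Mm00469375_m1 (-0.543, adjusted p = 0.0396) and Mm00724407_m1 (-0.508, adjusted p = 0.0463). For Mm01320260_m1 they were Mm00484138_m1 (0.574), Mm01195718_m1 (0.573) and Mm00448160_m1 (0.565), with Mm00469375_m1 (-0.629; limma, adjusted p = 0.0418 for all 4; 32 samples) and Mm00445313_m1 (-0.569, adjusted p = 0.0683) opposed. For Mm00505670_m1 none passed. The closest were Mm00435217_m1 (0.428) and Mm00442039_m1 (0.424; limma, adjusted p = 0.672 each, 40 samples) and Mm01288386_m1 (0.418, adjusted p = 0.787, 28 samples). The most opposed were Mm01320697_m1 (-0.419, adjusted p = 0.672) and Mm01175503_m1 (-0.411, adjusted p = 0.787, 39 samples). Mm00469375_m1 and Mm01195718_m1 thus stand on the lists of both assays of the correlated pair.

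These counts moved with single samples. For Mm00655850_m1 the count was 0 without CEC replicate 6. It was 3 without any 1 of CEC replicates 1, 4, 5 and 9 or Nissle replicates 1, 3, 4, 5 and 7. It was 10 without CEC replicate 7, Nissle replicate 10 or conventional replicate 7, and 11 without germ-free replicate 10 or 20 or Nissle replicate 6. It was 13 without germ-free replicate 30, 14 without Nissle replicate 8, 15 without germ-free replicate 22 or CEC replicate 8, and 22 without germ-free replicate 31. For Mm01320260_m1 it was 0 without any 1 of CEC replicates 1, 2, 3, 4, 5, 6 and 8, Nissle replicates 1, 6 and 9, conventional replicates 2, 3, 4 and 10 or germ-free replicate 30. It was 1 without conventional replicate 7, 7 without germ-free replicate 32 and 17 without CEC replicate 9. With sample weights no assay was called for either.

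Because the pair moved together in the CEC and Nissle groups, the fit was repeated on those 20 samples alone, a choice made after the values had been seen. On Mm00655850_m1, 24 of 213 assays were then called (11.3%), 15 positive and 9 negative. On Mm01320260_m1 there were 28 (13.1%), 15 positive and 13 negative. Setting the pair itself aside, 23 assays were called on the first and 27 on the second, and 23 were called on both, which follows in part from the close relation of the 2 regressors. Most rested on CEC replicate 6: without it 4 and 5 assays were called, each count including the other assay of the pair. On Mm00505670_m1, 9 assays were called (4.23%), each of which was lost without CEC replicate 8, when 0 were. Without CEC replicate 6 that count was 16, and without Nissle replicate 8 it was 17.

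Besides the pair, 3 assays kept their call on both regressors in every one of the 20 fits that left out 1 sample, and Mm01195718_m1 kept it on Mm01320260_m1. With sample weights, however, Mm00469375_m1 lost its call on both Mm00655850_m1 (limma, adjusted p = 0.0671) and Mm01320260_m1 (limma, adjusted p = 0.054), and Mm00484138_m1 lost it on Mm01320260_m1 (limma, adjusted p = 0.0539). With ranks all 4 assays passed on both regressors (limma, adjusted p from 0.000211 to 0.0341). Mm00441127_m1 had a slope of 0.71 ± 0.08 (SE) on Mm00655850_m1 (limma, adjusted p = 1.4e-06), and of 0.60 ± 0.09 without CEC replicate 6 (limma, adjusted p = 0.000343). Its level ran from -3.50 to 6.78 in CEC and from -5.78 to -0.11 in Nissle samples, and the slope was 0.74 in the first and 0.63 in the second group. Mm00484138_m1 had a slope of 0.41 ± 0.06 (limma, adjusted p = 0.00012), which fell to 0.26 ± 0.06 without CEC replicate 6 (limma, adjusted p = 0.0172). Mm00469375_m1 went the other way, with a slope of -0.17 ± 0.03 (limma, adjusted p = 0.000381) and of -0.13 ± 0.03 without that sample (limma, adjusted p = 0.0451). Its range was small, from -4.50 to -1.95 in CEC and from -3.45 to -2.42 in Nissle samples. Mm01195718_m1 had a slope of 0.76 ± 0.13 on Mm00655850_m1 (limma, adjusted p = 0.000363) and did not pass without CEC replicate 6 (0.49 ± 0.13; limma, adjusted p = 0.0608). On Mm01320260_m1 its slope was 0.95 ± 0.12 (limma, adjusted p = 7.23e-06), and 0.69 ± 0.14 without that sample (limma, adjusted p = 0.00541). These slopes are shared by the CEC and Nissle groups. In Nissle samples alone, Mm00484138_m1 and Mm01195718_m1 rose less steeply with Mm00655850_m1 than the shared slopes.

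In germ-free and conventional samples the slopes of these assays on Mm00655850_m1 lay between -0.04 and 0.19. For Mm00441127_m1 they were 0.09 in germ-free (n = 10) and 0.19 in conventional samples (n = 9), for Mm00484138_m1 0.01 and -0.04, for Mm00469375_m1 -0.01 and 0.04 and for Mm01195718_m1 0.05 and 0.05. The slopes differed between the 4 groups for Mm01195718_m1 (limma interaction, adjusted p = 0.00118) and Mm00484138_m1 (limma, adjusted p = 0.0463). For Mm00441127_m1 and Mm00469375_m1 they were not shown to differ (limma, adjusted p = 0.11 and 0.0759). These assays were picked for their slopes in CEC and Nissle samples, after the values were seen. The weaker slopes in the other groups and the p-values of the interaction are therefore not independent of that choice.

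**Figure D5:**
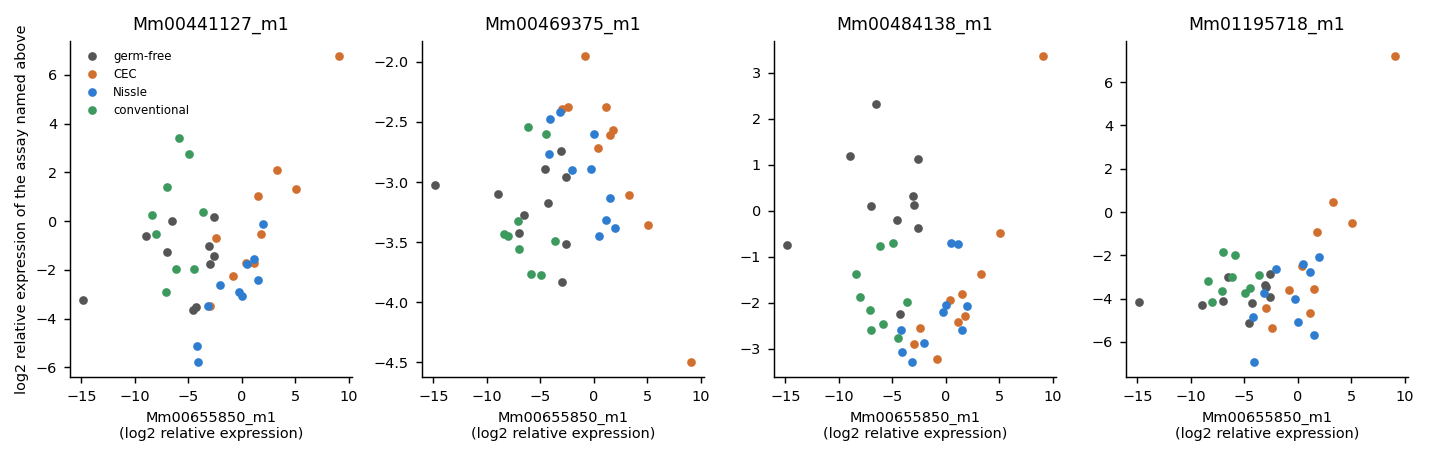
Level of 4 assays (log2 relative expression, vertical) against the level of Mm00655850_m1 (horizontal); each point is 1 sample, coloured by group. Slopes shared by CEC and Nissle samples were positive for Mm00441127_m1 (0.71), Mm00484138_m1 (0.41) and Mm01195718_m1 (0.76) and negative for Mm00469375_m1 (-0.17). Nissle samples alone rose less steeply than the shared slope for Mm00484138_m1 and Mm01195718_m1. CEC replicate 6 lies at the far right of each panel.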

How the data were processed

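The authors' deposited table holds raw threshold cycles (Ct) per the file headers, 224 assays by 40 samples, from a customized TaqMan OpenArray per the labels' protocols. The header calls it a truncated example. How the threshold was set and which filters were applied is not given in the sources used here. A Ct of 40 (405 wells, 21 assays) was read as undetermined. Another 156 values in 51 assays were read as filled in. Of these, 153 lay within 2e-06 cycles of the group's mean without them, and 3 of the mean of all but 1 sample. Both kinds were left without a level. Filled-in values did stay in the sample medians used for scaling, except under the alternative normalizer of fully measured assays.

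Levels were scaled by the sample median Ct of 203 assays; a shift common to most assays is removed by this. Fits used limma 3.58.1 in R 4.3.3 (lmFit, eBayes; two-sided; Benjamini-Hochberg over all assays of a fit; threshold 0.05). A fit took assays with at least 5 measured samples in each group, or at least 3 in a group where the regressor itself had fewer than 5. The lower minimum applied to Mm01320260_m1 when a conventional sample with a level was left out. Permutations used numpy 2.4.6 and plots matplotlib 3.10.9. The limma steps were tested on simulated data. Precision is set by the 10 samples per group.

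The 3 assays, the lists and the tests were chosen with earlier results of these data known. Named assays are the 3 assays, for each the 3 most and 2 least correlated others, and the 3 other assays with the widest spread. Assays kept in every leave-one-out fit were added after their values were seen. Gene lists and cell type markers could not be matched to IDs and were not used. Alternatives covered the normalizer, filled-in, undetermined and high-Ct wells (above 30), ranks, sample weights, a filter, a replicate block and each sample left out.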

Additional observations from a re-analysis of the deposited data

Results flagged for a closer look

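In 2 of 12 sets of samples (3 assays in 4 groups), 1 sample stood far from the rest. The assays were chosen for such spread, so both are given as a description. Germ-free replicate 31 had a level of -14.89 for Mm00655850_m1, 5.98 log2 units below the next germ-free sample. CEC replicate 8 had 6.08 for Mm00505670_m1, 7.21 above the next CEC sample.

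Among the assays named for each regressor and the 3 assays themselves, slopes differed between the 4 groups for 7 combinations (limma, interaction of group and level; adjusted p-values). On Mm00655850_m1 these were Mm01320260_m1 (0.000152), Mm01195718_m1 (0.00118) and Mm00505670_m1 (0.00921). The first takes in the 2 clusters of germ-free samples. The last rests on the 2 clusters of conventional samples and did not pass without conventional replicate 2 (limma, adjusted p = 0.051) or 4 (0.104). On Mm01320260_m1 they were Mm00655850_m1 (3.42e-05), Mm01195718_m1 (0.000318) and Mm00484138_m1 (0.0441). On Mm00505670_m1 it was Mm01175503_m1 (0.00467). The tests on Mm01320260_m1 take in its 2 germ-free clusters, and that on Mm00505670_m1 takes in its 2 conventional clusters and CEC replicate 8. Both regressors were chosen for this spread, so these p-values are not independent of that choice. In CEC and Nissle samples alone, Mm01175503_m1 lost its call on Mm00505670_m1 without CEC replicate 8 (limma, adjusted p = 0.529).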

How the results depend on the processing

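The high samples of Mm00505670_m1 numbered 8 under all 6 alternatives. Only those for the scaling could change this, since the assay was measured below 30 cycles in every sample. With the mean Ct as normalizer Mm00655850_m1 also had a gap above 1.5 (1.56), with 14 high samples, 8 CEC and 6 Nissle. The r of the correlated pair passed under all 16 alternatives in each group. Those for filled-in, undetermined and high-Ct wells could not change it, because both assays were measured below 30 cycles in all these samples. Counts of called assays were less stable. For Mm00655850_m1 (6 over all groups) the count was 11 with the normalizer of fully measured assays, 15 without normalization, 13 with filled-in values, 3 with undetermined wells at 37.67 cycles, 26 with Ct above 30 undetermined, 1 with ranks, 0 with sample weights, 12 with fully measured assays only and 11 with the replicate block, and 0 to 22 with 1 sample left out. For Mm01320260_m1 (4) it was 0 without normalization, with undetermined wells at 37.67 and with sample weights, 25 with the replicate block, and 0 to 17 with 1 sample left out. The fit with Ct above 30 undetermined was not run for it, since too few conventional samples remained. For Mm00505670_m1 (0) it was 0 throughout.

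In CEC and Nissle samples the counts were, for Mm00655850_m1 (24), 6 with ranks, 4 with sample weights and 4 to 28 with 1 sample left out. For Mm01320260_m1 (28) they were 18 without normalization, 6 with ranks, 3 with sample weights, 14 with the replicate block and 5 to 33 with 1 sample left out. For Mm00505670_m1 (9) they were 4 without normalization, 0 with ranks, 5 with sample weights, 15 with the replicate block and 0 to 17 with 1 sample left out. Of 33 pairs of samples that share a number, 11 had deviations correlated above 0.1 (median -0.03), so the numbers were not taken as pairing. Of the 10 CEC and Nissle pairs 1 was above 0.1, at 0.51, the highest of all pairs.

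The interaction F of Mm01320260_m1 on Mm00655850_m1 was 5.06 with undetermined wells at 37.67. That of Mm00505670_m1 on Mm00655850_m1 (9.23) was 0.30 there, 1.91 with Ct above 30 undetermined and 5.25 to 21.7 with 1 sample left out. The r of Mm00655850_m1 and Mm00505670_m1 in CEC samples ran from -0.76 to 0.42 with 1 sample left out. The cause of these changes was not tested. The lowest level of Mm00655850_m1, in germ-free replicate 31, comes from the highest measured Ct, 36.67 cycles.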

Other observations

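Mm00446420_m1 had the widest spread of the 217 assays, and 1 sample stood high in each of 3 groups. Germ-free replicate 12 was at 6.65, CEC replicate 6 at 6.29 and Nissle replicate 1 at 6.90 log2 units. The highest of the other samples was CEC replicate 8, at -1.86, and the conventional samples ran from -7.44 to -4.82. None of the 3 high samples was high for Mm00505670_m1. For Mm00655850_m1 and Mm01320260_m1 they went different ways. CEC replicate 6 was the highest CEC sample for both. Nissle replicate 1 was the lowest Nissle sample for Mm01320260_m1 (-6.01) and among the lowest for Mm00655850_m1 (-4.10). Germ-free replicate 12 was undetermined for Mm01320260_m1 and among the lower germ-free samples for Mm00655850_m1 (-6.98).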
